A study of Mus musculus with 48 samples.

Results

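The colon transcriptome of mice that lack Bmal1 in the intestinal epithelium was compared with that of control mice at circadian time 13 (CT13), just after the start of the circadian night. The comparison holds every mouse that the labels place at this time, 4 of each genotype and 8 of the 48 mice of the series, and covers all 15073 genes that passed the filter on low counts. The 4 control mice (Bmal1fl/fl, labelled SV396, SV397, SV421 and SV424) were littermates without Cre, and the 4 knockout mice (Bmal1iec-/-, labelled SV395, SV448, SV449 and SV450) carried the same floxed alleles together with Cre under the Villin promoter. They are called knockout mice throughout by their labels. All were male C57BL/6J mice aged 18 to 20 weeks, singly housed with a running wheel and fed ad libitum, and all were killed on the second day of constant darkness. Villin-Cre acts in epithelial cells, so muscle, stroma, nerve and immune cells of the sampled tissue kept Bmal1, and in whole colon fewer cells of a type and less RNA per cell cannot be told apart.

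BMAL1 pairs with CLOCK or NPAS2 and drives transcription from E-box motifs. Among its direct targets are the Period, Cryptochrome and Rev-erb genes and the PAR bZIP factors, whose products repress the dimer, repress Bmal1 itself, or pass the rhythm on to other genes. In the gut epithelium this loop is known to time nutrient transport, barrier and detoxification functions, and in mice the start of the night is also the start of the main meal.

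Values are read counts per gene divided by a size factor for each mouse, called normalized counts, and they are listed in the order of the mice named above, with control values first. Between 3615257 and 4785844 reads were counted on genes per mouse, and the 4 knockout libraries (3978398 to 4785844) were slightly deeper than the 4 control libraries (3615257 to 4248356). Where a mouse has no read of a gene, as many as 3 remain possible, a floor that covers counting error only. Each library correlated more closely with its own genotype than with the other (median Pearson r across genes of 0.979 to 0.983 against 0.973 to 0.978), and the smallest gap, 0.980 against 0.978, was in control mouse SV421. All 12 epithelial markers passed the filter, with summed normalized counts of 77545 to 89534 in control and 73029 to 83934 in knockout mice. None of the 12 was called by edgeR, DESeq2 or limma-voom (5 had an unadjusted p under 0.05 in edgeR), although Krt20, a keratin of surface colonocytes, had an adjusted p of 0.00825 (log2 fold change -0.45 ± 0.11). Of 10 exocrine pancreas markers only Cela1 passed the filter, and the others held at most 4 reads over the 4 mice of a genotype.

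A gene was called when the edgeR quasi-likelihood test gave a Benjamini-Hochberg adjusted p below 0.05 and its fold change exceeded 1.5. By this rule 343 genes, or 2.28% of those tested, were called at CT13. Expression was higher in knockout mice for 188 of them (1.25% of all genes tested) and lower for 155 (1.03%). More than a 2-fold change was found for 89 of the higher and 54 of the lower genes. The median log2 fold change of all genes was -0.0041. Normalized counts of both genotypes did not overlap for 1917 genes (12.7%), including 310 of the 343 called. These counts moved with single mice. Without control mouse SV424, 226 genes were called, 113 of them higher and 113 lower, the fewest of the 8 fits without 1 mouse. Without control mouse SV397 there were 253, and without control mouse SV421 there were 403, the most.

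**Figure D1:**
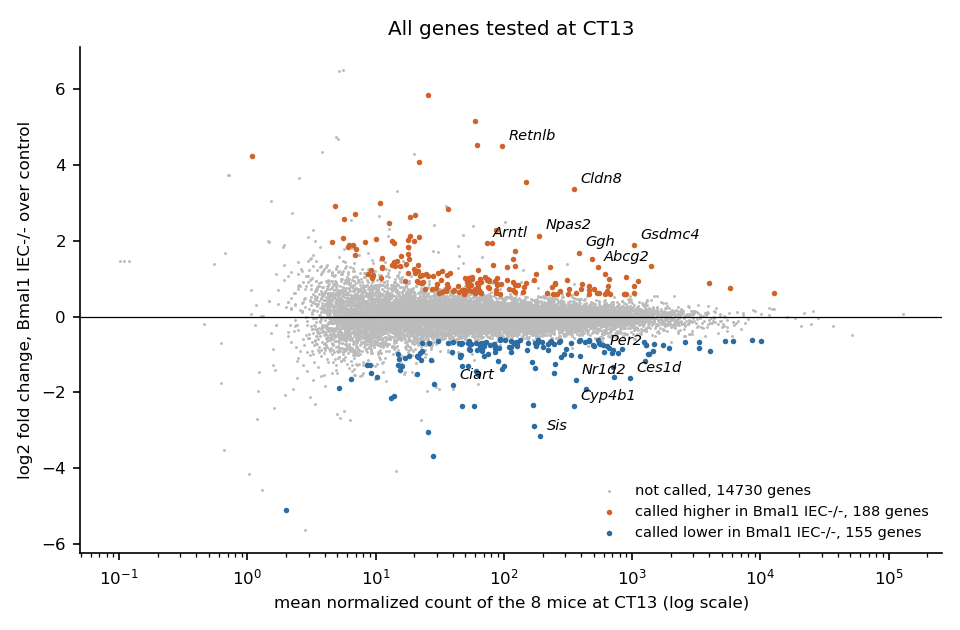
Log2 fold change of knockout over control colon at CT13 (y axis) against the mean normalized count of the 8 mice (x axis, log scale), 1 point per gene tested. Orange points are the 188 genes called higher, blue points the 155 called lower, grey points all others, and the called genes spread over the whole range of expression.

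Arntl, the gene that encodes BMAL1, was itself among the genes with more reads in knockout colon. It is listed as ENSMUSG00000055116.8 (chromosome 7, 113207465 to 113314126 of GRCm38). Control mice had 40.5, 36.6, 26.1 and 17.4 normalized counts and the mice labelled knockout 108, 124, 131 and 103. The lowest knockout value was more than 2 times the highest control value, with a log2 fold change of 1.93 ± 0.19 (SE), adjusted p = 4.29e-10. Control mice were at the daily trough of Arntl at CT9 and CT13 (26.4 ± 8.81 and 30.2 ± 10.5, mean ± SD, n = 4) and near its peak at CT1 and CT21 (260.0 ± 18.02 and 252 ± 23.9). Knockout means stayed between 114 and 177 at all 6 times. At CT13 the count of the targeted gene therefore ran against the labels, while at CT1 and CT21 it was lower in the knockout mice (log2 fold changes of -0.56 and -0.86). The counts cover the whole gene, the floxed exons are not given in the sources used here, and cells outside the epithelium keep the gene, so the Arntl count is no direct measure of the deletion.

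The partners of BMAL1 differed among themselves. Npas2 (chromosome 1, 39193731 to 39363236), a paralogue of Clock, had 80.2, 60.3, 70.9 and 66.3 normalized counts in control and 282, 327, 311 and 306 in knockout mice. All knockout mice lay far above all control mice, and the gene had the largest rise of the core clock list (log2 fold change of 2.13 ± 0.15 (SE), adjusted p = 1.10e-13). Clock, with 354, 434, 402 and 361 in control and 390.0, 518, 429 and 506 in knockout mice, did not pass the test (0.25 ± 0.17, adjusted p = 0.483). Its groups overlapped.

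The Period genes, whose proteins close the negative limb of the loop, were lower in the knockout mice. Per2 reached 820.0, 737, 599 and 979 normalized counts in control mice, its highest daily level, against 439, 389, 373 and 453 in knockout mice (log2 fold change of -0.92 ± 0.17 (SE), adjusted p = 0.000406). Even the lowest control mouse stood above all knockout mice. Per3 gave 389.7, 331, 449 and 339 in control and 147, 225, 202 and 148 in knockout mice (-1.07 ± 0.16, adjusted p = 1.07e-05), again without overlap. Per1 fell from 348, 479, 465 and 476 to 121, 240.1, 248 and 270.4 (-1.01 ± 0.30, adjusted p = 0.0407), but lay near the threshold and was no longer called without any 1 of 6 of the 8 mice (SV397, SV421, SV424, SV395, SV448 or SV449). DESeq2 did not call it, nor did the fit on all 48 mice.

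The Rev-erb genes Nr1d1 and Nr1d2 encode the nuclear receptors that repress Arntl, and both were lower. Nr1d2 (chromosome 14, 18204054 to 18239127) had 588, 505, 603 and 504 normalized counts in control and 147, 213, 178 and 156 in knockout mice, a log2 fold change of -1.67 ± 0.16 (SE), adjusted p = 4.73e-10. Nr1d1 had 160.3, 157, 118 and 138 against 45.2, 67.2, 61.7 and 58.1 (-1.31 ± 0.25, adjusted p = 0.000693). The knockout mice of both genes were uniformly low and separate from the controls. Ciart, a repressor of the CLOCK-BMAL1 dimer, showed the largest fall of the core clock list, from 51.6, 80.8, 60.5 and 56.5 to 12.9, 17.3, 24.5 and 15.9 (-1.81 ± 0.27, adjusted p = 1.02e-05). The repressors Bhlhe40 (-0.40 ± 0.14, adjusted p = 0.0994) and Bhlhe41 (-0.077 ± 0.37, adjusted p = 0.945) did not pass the test.

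Of the cryptochromes, which repress the dimer together with the Period proteins, Cry1 alone was called. It was higher in knockout mice, with 184, 200.3, 119 and 183 normalized counts in control and 256, 261, 253 and 288 in knockout mice (log2 fold change of 0.62 ± 0.14 (SE), adjusted p = 0.00413). The rise was small and the call was lost without control mouse SV421 or knockout mouse SV450. For Cry2 the values overlapped (372, 399.6, 317 and 341 against 265, 323, 339 and 337, -0.18 ± 0.14, adjusted p = 0.561).

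Promoters of 17 of the 22 core clock genes are in RefSeq's table for GRCm38.p6, which holds 250 bases before to 50 bases after each start site. The canonical E-box CACGTG, which reads the same on both strands, lay in the windows of 5 of the 17 genes. Of the 11111 genes tested that have a window, 11.3% held it, and of all 32851 windows, where a gene can have several, 7.15% did. The windows of Ciart, Per1, Cry1 and Tef are shown because these genes combine such a motif with a called change, which was a rise for Cry1 and a fall for the others. Capitals mark the E-box, and each sequence is given 5′ to 3′ on the strand of its gene.
Ciart, minus strand, chr3:95882179-95882478: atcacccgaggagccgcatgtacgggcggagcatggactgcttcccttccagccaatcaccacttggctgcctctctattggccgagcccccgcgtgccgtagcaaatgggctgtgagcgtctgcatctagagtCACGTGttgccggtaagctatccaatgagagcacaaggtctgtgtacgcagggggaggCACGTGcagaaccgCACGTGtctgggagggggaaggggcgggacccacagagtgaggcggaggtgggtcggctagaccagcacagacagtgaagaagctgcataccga
Per1, plus strand, chr11:69098699-69098998: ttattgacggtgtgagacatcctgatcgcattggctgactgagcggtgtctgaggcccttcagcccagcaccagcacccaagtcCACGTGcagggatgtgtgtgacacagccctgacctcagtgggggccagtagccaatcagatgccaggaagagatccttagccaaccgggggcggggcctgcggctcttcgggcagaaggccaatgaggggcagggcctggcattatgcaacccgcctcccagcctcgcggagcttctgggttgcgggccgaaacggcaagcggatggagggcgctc
Cry1, minus strand, chr10:85185005-85185304: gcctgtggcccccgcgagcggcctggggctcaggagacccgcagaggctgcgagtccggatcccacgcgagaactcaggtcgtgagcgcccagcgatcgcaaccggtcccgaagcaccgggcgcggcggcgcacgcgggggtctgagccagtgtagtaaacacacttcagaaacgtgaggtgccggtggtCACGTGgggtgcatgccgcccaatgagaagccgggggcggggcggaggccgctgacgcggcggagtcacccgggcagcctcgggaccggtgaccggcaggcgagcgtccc
Tef, plus strand, chr15:81802423-81802722: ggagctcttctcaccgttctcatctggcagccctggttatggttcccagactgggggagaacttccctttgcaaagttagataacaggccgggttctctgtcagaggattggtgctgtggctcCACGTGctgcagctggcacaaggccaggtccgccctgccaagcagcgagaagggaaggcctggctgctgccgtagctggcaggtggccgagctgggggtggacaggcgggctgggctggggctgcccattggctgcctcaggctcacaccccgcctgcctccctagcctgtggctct
Ciart held 3 E-boxes, starting 116, 58 and 44 bases before the start site. The other 3 windows shown held 1 each, 166 (Per1), 60 (Cry1) and 127 (Tef) bases before the start. Another window of Tef, not shown, held an E-box 138 bases before its own start site. Another window of Per1, also not shown, held none. Bhlhe41, which did not pass the test, had an E-box 153 bases before its start. The motif was also found for 17 of 119 genes called lower (14.3%) and 11 of 125 called higher (8.8%). A match describes the letters of the window and is no evidence of binding.

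The PAR bZIP factors Dbp, Tef and Hlf bind D-box motifs in output genes, and Nfil3 competes with them. Tef (chromosome 15, 81802421 to 81826863) had 937, 924, 1001 and 837 normalized counts in control and 419, 544, 520.4 and 419 in knockout mice (log2 fold change of -0.96 ± 0.12 (SE), adjusted p = 2.16e-07). Dbp was also lower (115, 141, 141 and 104 against 43.6, 60.5, 74.3 and 44.05, -1.17 ± 0.23, adjusted p = 0.00109). Hlf values overlapped and gave 0.13 ± 0.19, adjusted p = 0.79. Nfil3 was higher, with 39.6, 39.9, 37.5 and 33.7 in control and 73.5, 90.3, 77.7 and 113 in knockout mice (1.23 ± 0.18, adjusted p = 6.29e-06). All 4 knockout mice lay above the controls for Nfil3 and below them for Tef and Dbp.

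The nuclear receptor gene Rora (-0.054 ± 0.13, adjusted p = 0.887) and the kinase genes Csnk1d (-0.047 ± 0.069, adjusted p = 0.793) and Csnk1e (-0.45 ± 0.14, adjusted p = 0.052, genotypes separate) did not pass the test. In all, 4 of the 22 core clock genes tested were called higher and 8 lower, against 2.28% called of all genes, with a median log2 fold change of -0.13. For 14 of the 22 the genotypes did not overlap, as against 12.7% of all genes. Leaving out 1 of the 8 mice gave 10 to 12 calls.

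**Figure D2:**
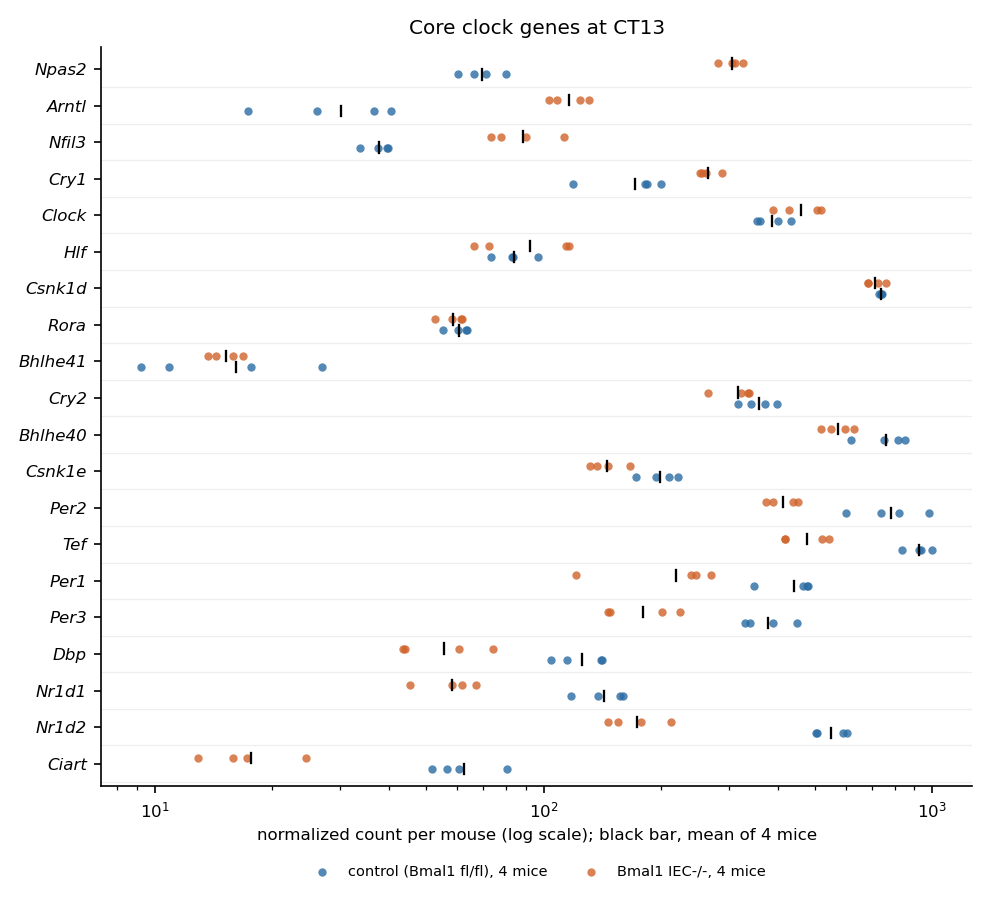
Normalized counts (x axis, log scale) of 20 of the 22 core clock genes at CT13, 1 point per mouse, with control mice in blue, knockout mice in orange and the mean of 4 mice as a black bar. Genes are ordered by fold change, and Npas2 and Arntl at the top and Ciart and Nr1d2 at the bottom show the widest separation.

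Some of the genes known as outputs of the clock were lower. Of 24 tested, 8 were called lower and 1 higher, against 1.03% and 1.25% of all genes, and 15 were not called, with a median log2 fold change of -0.29. Usp2, a ubiquitin protease gene, had 334, 374, 289 and 415 normalized counts in control and 136, 143, 183 and 136 in knockout mice (log2 fold change of -1.24 ± 0.21 (SE), adjusted p = 9.25e-05). Alas1, which encodes the first enzyme of haem synthesis, was variable in control mice (1556, 2617, 1337 and 2116) and lower in knockout mice (1086, 779.8, 1057 and 1166, -0.90 ± 0.24, adjusted p = 0.0172). This call was lost without SV397, SV424 or SV448. Ypel2 was the gene that rose, from 85.7, 40.9, 46.9 and 59.8 to 99.3, 133, 106 and 110.1 (0.93 ± 0.17, adjusted p = 0.000376). The number of output genes called dropped from 9 to 5 without knockout mouse SV448. Per1 stands on this list as well as on that of the core clock.

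Outside the clock, the gene with the smallest adjusted p was Cldn8. Cldn8, a claudin that seals the tight junction of the distal colon (chromosome 16, 88560828 to 88563183), had 61.7, 43.1, 57.4 and 88.1 normalized counts in control and 562, 691, 558 and 769 in knockout mice. The groups were separated by more than 6 times between their nearest mice, and no gene tested had a smaller adjusted p (log2 fold change of 3.36 ± 0.18 (SE), adjusted p = 5.34e-18). It was the sole call among 16 tight junction genes tested. Occludin, ZO-1 (Tjp1) and 8 other claudins tested were not called, and the median log2 fold change of the list was 0.00147.

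Ggh, gamma-glutamyl hydrolase, trims the polyglutamate tail of folates (chromosome 4, 20042052 to 20066750). Its normalized counts were 175, 183, 209.7 and 166 in control and 512, 624, 593 and 631 in knockout mice (log2 fold change of 1.68 ± 0.12 (SE), adjusted p = 9.84e-14). The lowest knockout mouse stood well above the highest control. It was the sole call among 16 tested genes of folate and one-carbon metabolism. Abcg2, an apical efflux pump of xenobiotics and urate (chromosome 6, 58584523 to 58695676), rose from 307, 283, 338 and 313 to 697, 783, 846 and 758 (1.31 ± 0.10, adjusted p = 1.70e-12), again in all 4 knockout mice.

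The other leading genes called higher had varied functions. Ffar2, a receptor for short-chain fatty acids, had 67.3, 46.3, 81.4 and 45.7 normalized counts in control and 166, 161, 189 and 178 in knockout mice (1.52 ± 0.16, adjusted p = 3.32e-09). Pycard, the adaptor ASC of inflammasomes, had 280.1, 289.7, 321 and 261 against 569, 466, 521 and 529 (0.86 ± 0.093, adjusted p = 9.37e-09). Neither gene's groups overlapped. Pigr, the receptor that carries IgA into the lumen, had 10605, 9968, 10238 and 9455 in control and 16776, 15756, 13675 and 15301 in knockout mice (0.61 ± 0.077, adjusted p = 4.38e-07). Its fold was close to the limit, and the call was lost without SV424 or SV395. Ddc, the decarboxylase that forms serotonin and dopamine (0.86 ± 0.09, adjusted p = 3.57e-09), Mtch2, a mitochondrial outer membrane protein (0.81 ± 0.087, adjusted p = 7.61e-09), and Glipr2 (1.74 ± 0.14, adjusted p = 2.79e-12) were higher too. Arrb1, beta-arrestin 1, had 755, 682, 668 and 694 against 1046, 1107, 1116 and 994 (0.61 ± 0.077, adjusted p = 4.87e-07) and was not called without SV449.

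Among the genes called lower, several encode digestive, transport and detoxifying proteins. Ces1d, a carboxylesterase that hydrolyses lipid esters and drugs (chromosome 8, 93166068 to 93197838), had 1428, 1498, 1359 and 1559.5 normalized counts in control and 396, 539, 528 and 449 in knockout mice (log2 fold change of -1.61 ± 0.14 (SE), adjusted p = 1.31e-11). Cyp4b1, a cytochrome P450, fell from 667, 589, 395 and 708 to 92.8, 137, 114 and 116 (-2.36 ± 0.22, adjusted p = 2.85e-10). Sis, the sucrase-isomaltase of the brush border (chromosome 3, 72888557 to 72967863), fell from 369, 437, 300.4 and 278 to 66.2, 21.1, 29.6 and 37.00 (-3.14 ± 0.30, adjusted p = 3.99e-10). For all 3 genes every knockout mouse was far under every control mouse. Slc13a1, a sodium-sulfate cotransporter, had 340.0, 314, 460.0 and 323 against 167, 121, 111 and 115 (-1.48 ± 0.18, adjusted p = 2.16e-07). Slc9a3r1, which encodes the brush border scaffold NHERF1, fell from 1077, 1271, 894 and 1027 to 648, 505, 578 and 615 (-0.86 ± 0.11, adjusted p = 5.07e-07). Smim24, a small integral membrane protein gene, had the smallest adjusted p of the genes called lower (-1.34 ± 0.11, adjusted p = 1.14e-11). Its values were 1087, 1123, 923 and 899 in control and 424, 329, 409.7 and 433 in knockout mice.

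The other leading genes called lower code for proteins of varied kinds. A4gnt adds terminal N-acetylglucosamine to mucin glycans, and had 706, 653, 598 and 601 normalized counts in control and 299.5, 441, 356 and 389 in knockout mice (-0.79 ± 0.091, adjusted p = 5.27e-08). B3galt2, a galactosyltransferase gene, fell from 100.4, 87.2, 59.5 and 67.4 to 12.9, 12.5, 21.96 and 14.1 (-2.35 ± 0.30, adjusted p = 4.25e-07). Thbs4, which encodes a thrombospondin of the extracellular matrix, fell from 114, 124, 63.6 and 88.1 to 20.2, 23.05, 19.4 and 13.2 (-2.36 ± 0.22, adjusted p = 2.59e-10). Plac8 was lower as well (-0.74 ± 0.091, adjusted p = 1.98e-07), and none of these 4 genes had overlapping groups.

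**Figure D3:**
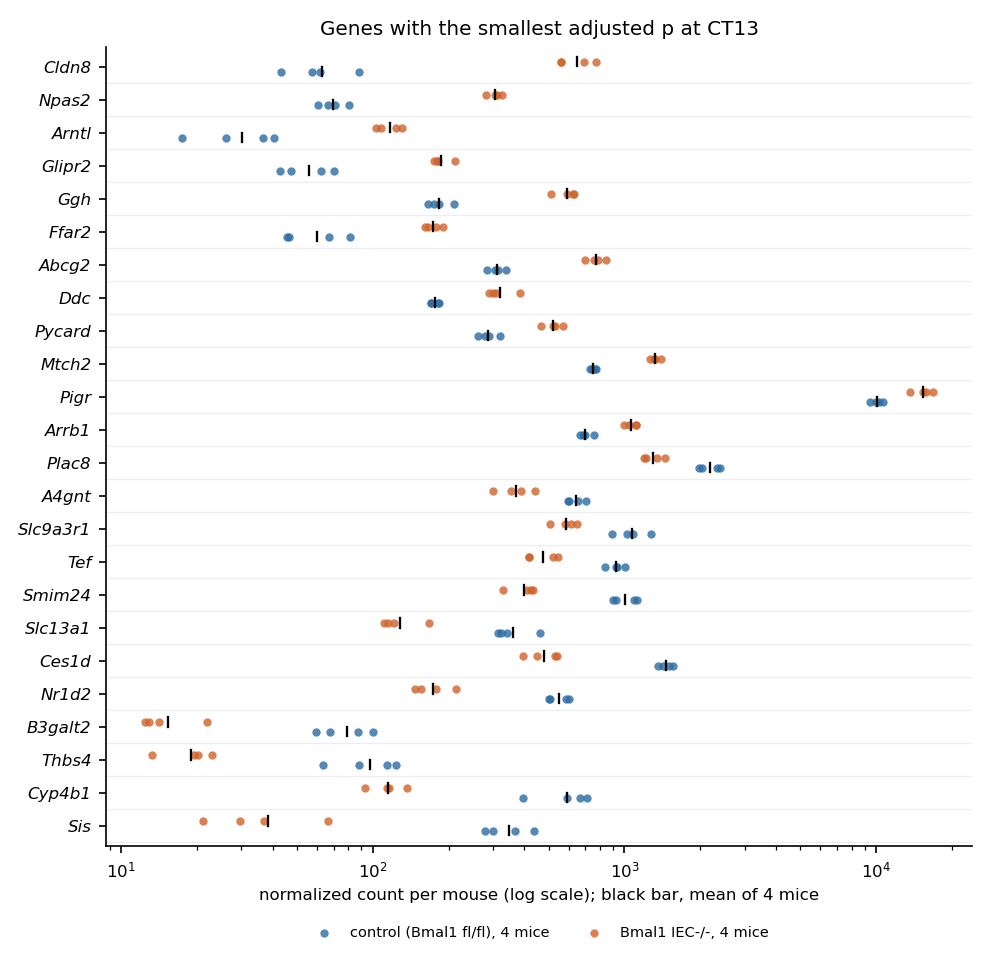
Normalized counts per mouse (x axis, log scale) of the leading 24 named genes by adjusted p at CT13, 12 called higher and 12 called lower, with control mice in blue, knockout mice in orange and the mean of 4 mice as a black bar. In each of the 24 genes the 4 mice of one genotype lie apart from the 4 of the other.

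Several antimicrobial effectors were higher, with large spread among the knockout mice. Of 16 antimicrobial genes tested, 5 were called higher and none lower, against 1.25% and 1.03% of all genes, with a median log2 fold change of 0.17. Retnlb, a bactericidal goblet cell protein, had 7.37, 3.23, 15.6 and 6.52 normalized counts in control and 518, 80.7, 77.7 and 66.1 in knockout mice (log2 fold change of 4.49 ± 0.95 (SE), adjusted p = 0.00228). All knockout mice exceeded all controls, and mouse SV395 was more than 6 times the next highest. Ang4, an angiogenin of Paneth and goblet cells, had 24.9, 20.5, 20.9 and 27.2 against 562, 293, 59.98 and 179.7 (3.55 ± 0.88, adjusted p = 0.0112). Saa3, an acute phase protein, had 11.98, 1.08, 11.5 and 3.26 against 56.5, 17.3, 21.1 and 20.3 (2.01 ± 0.45, adjusted p = 0.00394). Itln1, a lectin for microbial sugars, had 0.921, 3.23, 2.09 and 3.26 against 54.1, 10.6, 6.76 and 5.29 (3.0 ± 0.78, adjusted p = 0.0169), and in each of these 4 genes SV395 was the highest of the knockout mice. Its control values rest on 1, 3, 2 and 3 reads, so the fitted fold depends on the prior count. The ratio of summed reads was 8.65 (95% exact interval 4.36 to 19.5, counting error only), and the Itln1 call was lost without SV396 and in DESeq2, limma-voom and the fit on all 48 mice. Without SV395 none of the 5 antimicrobial genes passed both limits. The log2 fold change of Retnlb was then 3.17. With limma-voom 2 of the 5 remained, since Retnlb, Ang4 and Itln1 were lost. Reg3b (0.062 ± 0.65, adjusted p = 0.977) and Reg3g (0.29 ± 0.62, adjusted p = 0.87), antibacterial lectins chosen here after their values were seen, overlapped between genotypes.

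The wider list of goblet cell and mucus genes was divided. Of 20 goblet and mucus genes tested, 3 were called higher (Retnlb, Ang4 and Zg16) and 1 lower (Muc3), against 1.25% and 1.03% of all genes, with a median log2 fold change of -0.21. Zg16, which aggregates bacteria in the mucus, had 4318, 3296, 5192 and 4450.0 normalized counts in control and 7394, 6309.7, 7626 and 7625 in knockout mice (0.75 ± 0.18, adjusted p = 0.0109). The knockout mice were all above the controls, but the call was lost without SV397. Muc3, a membrane mucin, had 7778, 7882, 6271 and 8001 against 5005, 4769, 4335 and 5223 (-0.63 ± 0.14, adjusted p = 0.00529), a call lost without SV449. Of 8 goblet cell markers, Zg16 was the one called. Their summed counts were 78860.0 to 96733 in control and 64618 to 78885 in knockout mice, and the part of goblet cell number in these results was not tested.

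Some gasdermins, which form pores in membranes, and an inflammatory caspase were higher. Of 10 genes tested on a list of gasdermins, caspases and Il18, 5 were called higher and none lower (1.25% and 1.03% of all genes). The median log2 fold change was 0.72. Gsdmc4 had 349, 325, 857 and 227 normalized counts in control and 2198, 1755, 1323 and 1218 in knockout mice (log2 fold change of 1.88 ± 0.33 (SE), adjusted p = 0.000193). Gsdmc3 had 221, 178, 433 and 181 against 895, 807, 633 and 559 (1.51 ± 0.33, adjusted p = 0.00353), and Gsdmc2 690.1, 631, 1337 and 519.8 against 2588, 2076, 1751 and 1558 (1.33 ± 0.31, adjusted p = 0.00589). Control mouse SV421 was the highest of the controls in all 3, yet stayed under every knockout mouse. The Gsdmc genes are near-identical copies, so the split of reads among them is uncertain. Gsdma had 16.6, 12.9, 17.7 and 15.2 against 35.5, 31.7, 43.9 and 24.7 (1.11 ± 0.29, adjusted p = 0.0157), and its call was lost without SV397 or SV449. Casp4, which cleaves gasdermin D, was the fifth gene called (0.87 ± 0.19, adjusted p = 0.00252), whereas Gsdmd itself was not (0.055 ± 0.10, adjusted p = 0.833).

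Transport genes changed in both directions. Of 31 genes of ion and water transport tested, 2 were called higher and 3 lower, against 2.28% of all genes called either way, and 24 of the 31 had a negative fold change (median -0.24). Slc34a2, a phosphate transporter, was close to absent in control mice (10.1, 0, 7.30 and 2.17) and present in all knockout mice (228, 53.8, 73.5 and 119.8, 4.52 ± 0.62, adjusted p = 2.17e-06). The water channel gene Aqp4 had 72.8, 82.9, 53.2 and 67.4 against 247, 158, 159 and 137 (1.34 ± 0.36, adjusted p = 0.021), and its call was lost without SV396, SV421, SV424 or SV395. Slc26a3, the chloride-bicarbonate exchanger of the colon, had 791, 745, 1033 and 788 against 447, 502, 407 and 548 (-0.82 ± 0.17, adjusted p = 0.00228). Car4, a membrane carbonic anhydrase, had 1698, 2048, 1552 and 2084 against 1125, 1012, 1130.3 and 1179 (-0.73 ± 0.10, adjusted p = 2.88e-06). For both genes all knockout mice were under all control mice.

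Brush border genes typical of the small intestine were also divided. Of 20 tested, 3 were called higher and 4 lower, against 2.28% of all genes called either way, with a median log2 fold change of -0.00918. Besides Sis, the fructose transporter gene Slc2a5 was lower (25.8, 23.7, 18.8 and 18.5 in control and 4.84, 4.80, 5.07 and 4.40 in knockout mice, -2.16 ± 0.36, adjusted p = 6.93e-05). The retinol-binding protein gene Rbp2 was lower too (56.2, 52.8, 54.2 and 43.5 against 32.3, 26.9, 22.8 and 25.5, -0.94 ± 0.20, adjusted p = 0.00181). Cyp3a11, a drug-metabolizing P450, rose from 0, 3.23, 2.09 and 4.35 to 36.3, 37.5, 45.6 and 44.05 (4.07 ± 0.58, adjusted p = 4.35e-06), and its size is imprecise at these few control reads. Alkaline phosphatase Alpi had 49.8, 47.4, 50.1 and 25.01 against 119, 56.7, 76.9 and 93.4 (1.0 ± 0.29, adjusted p = 0.0309), a call lost in 5 of the 8 fits without 1 mouse (SV396, SV397, SV424, SV395 or SV450). Fabp6, an ileal bile acid binding protein, had 3.69, 7.54, 3.13 and 7.61 against 62.2, 7.68, 9.29 and 6.17. Its groups overlapped, the value rested on SV395, and the log2 fold change of 1.98 fell to 0.50 without this mouse. The call was lost without SV396 or SV421 and with limma-voom as well. Of 10 small intestine markers, 7 passed the filter and 4 of them (Sis, Fabp6, Alpi and Rbp2) were called, 2 in each direction. Of the 10, Apoa4 and Mptx2 had no reads at CT13. The summed normalized counts of all 10 markers were 1565 to 1911 in control and 1544 to 2035 in knockout mice. The part of tissue sampling in these results was not tested.

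Detoxification was another divided group. Among 40 genes of xenobiotic metabolism, all tested, 2 were called higher and 5 lower (2.28% of all genes were called either way), and the median log2 fold change was -0.026. The 2 efflux pumps named here moved in opposite directions. Abcg2 rose as described, whereas Abcc2, which exports conjugates, fell from 23.95, 28.00, 29.2 and 8.70 to 5.65, 4.80, 5.07 and 5.29 (-2.09 ± 0.38, adjusted p = 0.000294). Abcc2 held few reads, 88 over the control and 24 over the knockout mice. Summed reads in control and knockout mice were 20545 and 12892 for the pump gene Abcb1a, and 4924 and 5749 for Abcc3. These sums are not corrected for depth, and the knockout libraries were slightly deeper. The Abcb1a sum was lower in knockout mice despite this, whereas the Abcc3 sums give no direction. Leaving out 1 of the 8 mice gave 7 or 8 calls.

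Central metabolism changed at few genes. No gene of sterol and fatty acid synthesis was called among 28 tested, although 22 had a negative fold change (median -0.14). At an unadjusted p under 0.05 in edgeR there were 3, and neither DESeq2 nor limma-voom called any. One gene was called without SV421, SV424 or SV450. In fatty acid oxidation, 2 of 24 genes were called, 1 higher and 1 lower. Acot2, a mitochondrial thioesterase, rose from 11.98, 11.8, 14.6 and 8.70 to 28.3, 28.8, 29.6 and 26.4 (1.25 ± 0.26, adjusted p = 0.00168). Of 23 genes of glycolysis and hypoxia, Vegfa alone was called (-0.62 ± 0.10, adjusted p = 2.55e-05), and this was lost without SV396 or SV395.

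Most genes of the proliferation list were not called. Of 30 tested, 4 were called higher (Mki67, Ccna2, Ccnb1 and Ccnb2) and 1 lower (Wee1), against 1.25% and 1.03% of all genes, with a median log2 fold change of 0.10. The other 25 were not called, among them the mitotic genes Top2a (0.57 ± 0.21, adjusted p = 0.113) and Plk1 (-0.20 ± 0.11, adjusted p = 0.356), chosen here after their values were seen. Ccna2, cyclin A2, had 61.7, 59.2, 64.7 and 46.8 normalized counts in control and 115, 98.9, 134 and 123 in knockout mice (log2 fold change of 1.02 ± 0.22 (SE), adjusted p = 0.00314). Ccnb2, a mitotic cyclin, had 38.7, 46.3, 51.1 and 38.1 against 88.01, 72.99, 99.7 and 62.5 (0.90 ± 0.24, adjusted p = 0.018), and Ccnb1 39.6, 60.3, 46.9 and 36.97 against 83.2, 70.1, 99.7 and 68.7 (0.81 ± 0.24, adjusted p = 0.0355). The marker Mki67 had 297, 288, 335 and 283 against 539, 442, 539 and 477 (0.73 ± 0.22, adjusted p = 0.049). In all 4 genes the genotypes were separate, yet only Ccna2 was called without each mouse in turn. Ccnb1 was lost without SV396, SV421, SV424, SV395 or SV449, Ccnb2 without SV396, SV424, SV395 or SV449, and Mki67 without any of the 8. With limma-voom Mki67 and Ccnb1 were not called, and Mki67 was not called on all 48 mice. Wee1, a kinase that holds cells before mitosis and a known clock target, was lower (-0.61 ± 0.12, adjusted p = 0.00145). Its fold was close to the limit, and without SV396 the list held 1 call, that of Ccna2, so the Wee1 call was lost. The replication genes Pcna (0.042 ± 0.10, adjusted p = 0.888) and Mcm2 (-0.33 ± 0.17, adjusted p = 0.328), chosen in the same way, overlapped. None of 16 Wnt and stem cell genes had an adjusted p under the threshold in edgeR (median -0.074), 3 had an unadjusted p under 0.05, and DESeq2 and limma-voom called none.

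Several heat shock genes were lower in knockout mice, but the result hung on 1 control mouse. Of 17 heat shock and cold-inducible genes tested, 7 were called lower and none higher, against 1.03% and 1.25% of all genes, and the median log2 fold change was -0.61. Hspa1a, an inducible HSP70 gene, had 140.1, 149, 78.2 and 771 normalized counts in control and 96.1, 29.8, 28.7 and 67.8 in knockout mice (log2 fold change of -2.34 ± 0.48 (SE), adjusted p = 0.00162). Control mouse SV424 was over 5 times the next control, and the groups overlapped. Hspa1b, a near-identical copy with which it may share reads, had 379.6, 429.8, 181 and 1755 against 309, 103, 83.6 and 229 (-1.91 ± 0.42, adjusted p = 0.00357). Hsph1 had 1556, 1409.9, 808 and 3219 against 1039.9, 580.1, 503 and 956 (-1.18 ± 0.31, adjusted p = 0.0163), and Hsp90aa1 2407, 2197, 1397 and 3883 against 1724, 1119.8, 1130.3 and 1616 (-0.82 ± 0.21, adjusted p = 0.0151). Without SV424, none of the 17 genes was called. Without SV448 or SV449, 2 were. The genotypes did not overlap for 2 of the 17, a share close to the 12.7% of all genes. In Fos, the one immediate early gene called of 18 tested (129, 276, 185 and 333 against 91.2, 85.5, 126 and 100.4, -1.18 ± 0.32, adjusted p = 0.0205), SV424 was again the highest control. The Fos call was lost without SV397, SV424, SV395 or SV448 and in the fit on all 48 mice. Among 15 glucocorticoid-responsive genes, Per1 was the one called.

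Immune gene lists gave few calls. No gene of 28 interferon-stimulated and 9 MHC class II genes tested had an adjusted p under the threshold in edgeR (medians 0.13 and -0.054). At an unadjusted p under 0.05 there were 5 and 1, and DESeq2 and limma-voom called none. Without control mouse SV421, 2 interferon-stimulated genes were called. Of 18 tested genes on a list of cytokines, chemokines and other immune genes, the fatty acid receptor gene Ffar2 and Ccl28 were called. Ccl28, a chemokine that attracts IgA-producing cells, had 239, 249.9, 208 and 140.3 normalized counts in control and 423, 358, 371 and 479 in knockout mice (0.96 ± 0.16, adjusted p = 9.05e-05), all above the controls. None of 24 genes of the secretory pathway was called by edgeR, DESeq2 or limma-voom (10 had an unadjusted p under 0.05), and 22 of them had a negative fold change (median -0.19). Without SV421, 1 of the 24 was called.

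Marker lists of other cell types gave few calls. No marker of enteroendocrine cells (10 tested), tuft cells (8), smooth muscle (10), fibroblasts (10), enteric neurons and glia (11), endothelium (8), T cells (8), follicular B cells (4), plasma cells (6), macrophages and dendritic cells (12), neutrophils and mast cells (2), blood (4) or fat and mesothelium (8) was called by edgeR, DESeq2 or limma-voom. The number with an unadjusted p under 0.05 in edgeR was at most 3 per list. Single calls appeared for endothelium without SV421 and for T cells without SV449. All 10 smooth muscle markers (median -0.17) and all 11 neural markers (median -0.21) nevertheless had a negative fold change, and their sums overlapped between genotypes (19346 to 23095 in control and 17081 to 21140.0 in knockout mice for muscle). The endothelial sums did not overlap (800 to 886 in control and 691 to 758 in knockout mice), and 7 of these 8 markers had a negative fold change. In edgeR 1 endothelial and 1 fibroblast marker had an adjusted p under the threshold but stayed under the fold limit. Of 9 distal colon markers 5 passed the filter, of which Aqp4 was called, and none of 8 proximal colon markers was called or had an unadjusted p under 0.05.

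**Figure D4:**
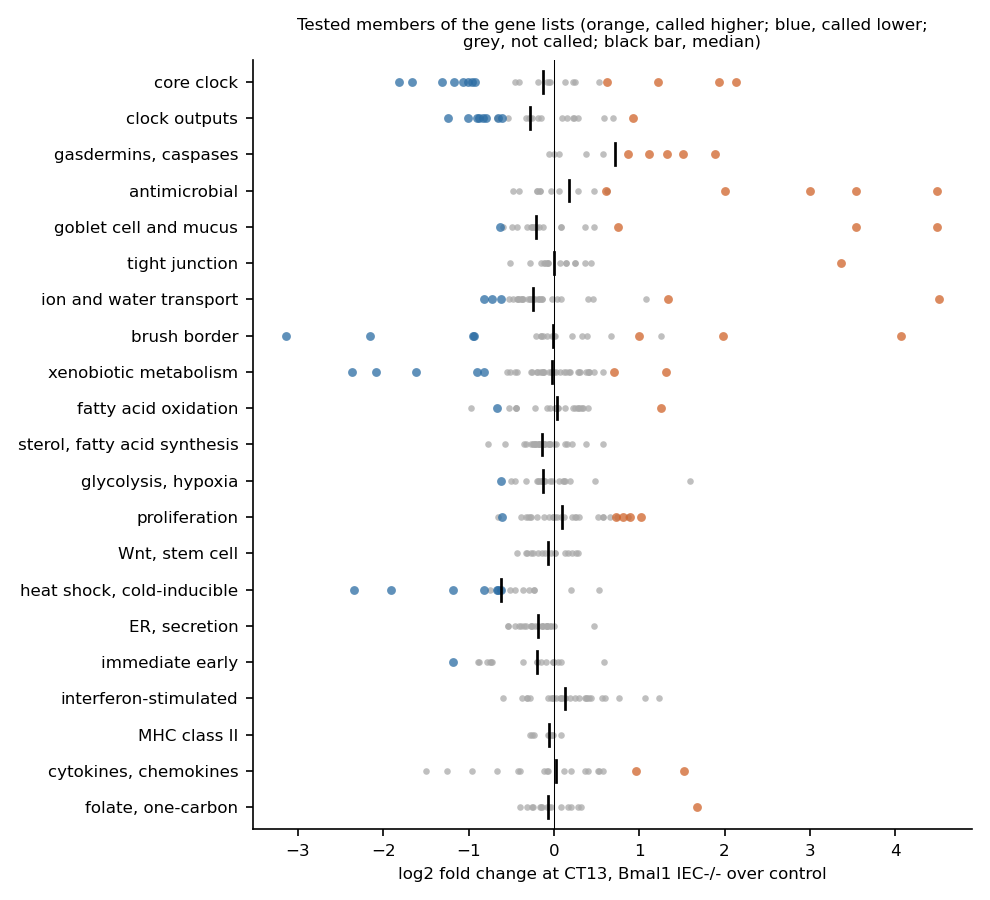
Log2 fold change at CT13 (x axis) of the tested members of 21 gene lists, 1 point per gene, orange where called higher, blue where called lower and grey where not called, with the list median as a black bar. The median lies to the right of 0 for the list of gasdermins, caspases and Il18 (8 of 10 genes positive). It lies to the left of 0 for heat shock genes (15 of 17 negative) and clock outputs (16 of 24 negative). Brush border and xenobiotic genes spread to both sides.

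The genotype difference at CT13 was set against the same difference at the other times, which were measured in other mice. In the same fit 129 genes were called at CT1 (0.856% of all genes tested), 49 at CT5 (0.325%), 152 at CT9 (1.01%), 100 at CT17 (0.663%) and 39 at CT21 (0.259%). CT1 rested on 2 knockout mice, because the fit leaves out the 2 that the normalization of the study left out. CT13 thus had the most calls, and 226 of its 343 genes (65.9%) were called at no other time, although only 36 of these 226 differed from the mean of the other 5 times in the direct test given further on. Called in the same direction at both times were 93 genes at CT9 (27.1% of the CT13 list and 61.2% of the CT9 list) and 69 at CT17 (20.1% and 69.0%). CT1 shared 22 (6.41% and 17.1%). Of the 188 genes higher at CT13, 163 also had a positive fold change at CT9 and 166 at CT17, against 48.8% and 50.8% of all genes. Called in the same direction at all 6 times were 12 genes, among them Cldn8, Cry1, Ggh, Glipr2, Cyp4b1, Nr1d2, Sis and Thbs4.

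Departures of CT13 from the other times were tested directly. The difference at CT13 departed from the mean of the other 5 times in 86 genes (0.571% of those tested, edgeR interaction contrast with adjusted p below 0.05), 36 upward and 50 downward. Of these, 58 were called at CT13, and in 57 of the 58, all but Cry1, the CT13 difference had the sign of the departure. This count depended on single mice. It was 23 without SV424, 27 without SV448, 31 without SV397, 32 without SV449, 37 without SV396, 44 without SV450 and 161 without SV421, and of the mice at other times it was 48 or 52 without either knockout mouse of CT1 and 154 without knockout mouse SV471 of CT21.

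Clock genes led this test. For Arntl the log2 difference was 1.93 at CT13 and 0.18 on average at the other times (departure 1.75 ± 0.20, adjusted p = 9.36e-07). The sign differed between times, with 2.07 at CT9 and -0.86 at CT21. Per2 was lower in knockout mice at CT13 (-0.92) and higher on average elsewhere (0.70, departure -1.62 ± 0.20, adjusted p = 1.50e-06), with the rise largest at CT1 (2.29) and CT5 (1.38). Cry1 was raised less at CT13 (0.62) than on average at the other times (1.57), with a departure of -0.94 ± 0.16, adjusted p = 0.000988. That average rested on 1.49 at CT1, 2.91 at CT5 and 2.11 at CT9, whereas CT17 (0.61) and CT21 (0.72) were close to CT13. Control mice had by then reached 172 ± 35.99 normalized counts of Cry1, up from 33.98 ± 10.6 at CT5. Npas2 (0.93 ± 0.17, adjusted p = 0.00279) and Tef (-0.72 ± 0.13, adjusted p = 0.00299) departed in the direction of their CT13 change. Both changes were shared with the neighbouring times. Npas2 differed by 2.13 at CT13, 2.11 at CT9 and 1.85 at CT17, and by 0.14 to 1.04 at the other times. For Tef, -0.96 at CT13 lay between -1.23 at CT9 and -0.73 at CT17. Its other differences were -0.15 at CT21, -0.10 at CT5 and 1.004 at CT1, where 2 knockout mice were fitted.

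Outside the clock, Cldn8 was raised at CT13 by 3.36 and by 1.92 on average elsewhere (departure 1.44 ± 0.20, adjusted p = 1.55e-05). That average combined 3.48 at CT9, slightly above the CT13 value, with 2.11 at CT17, 1.75 at CT5, 1.32 at CT21 and 0.95 at CT1. Knockout means of Cldn8 stayed between 632.2 and 645 normalized counts at the 6 times, while control means ran from 55.8 at CT9 to 328 at CT1. For Abcg2 the difference was 1.31 at CT13, the daily minimum of control mice, and 0.59 elsewhere (departure 0.72 ± 0.11, adjusted p = 0.000278). Ffar2 departed by 0.98 ± 0.17, adjusted p = 0.00224, Usp2 by -1.22 ± 0.24, adjusted p = 0.00754 and Slc34a2 by 3.23 ± 0.70, adjusted p = 0.0196. The differences of Slc34a2 at the other times ran from 0.14 at CT21 to 2.34 at CT17 and 2.92 at CT9, so its rise was shared with the neighbouring times. For Usp2 the mean difference of the other times (-0.018) combined values of both signs, from -0.73 at CT9 to 1.23 at CT1. For Ypel2 (0.026) they ran from -0.56 at CT21 to 0.69 at CT9. Of the proliferation genes called higher, Ccna2 departed by 0.96 ± 0.24, adjusted p = 0.0491, from a mean of 0.055 elsewhere. Sis, Ggh, Retnlb and Nr1d2 gave departures of -0.34, 0.21, 0.28 and 0.088 that did not pass the test.

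Few genes separated CT13 from the neighbouring times. Against CT9 the difference departed in 3 genes (0.0199%), among them Cry1 (-1.48 ± 0.21, adjusted p = 0.000114) and Nfil3 (-1.57 ± 0.28, adjusted p = 0.00802), both less raised at CT13. Against CT17 it departed in 2 genes (0.0133%), Arntl (1.65 ± 0.25, adjusted p = 0.000583) and Cldn8 (1.25 ± 0.24, adjusted p = 0.0457), both more raised at CT13. At an unadjusted p under 0.05 the numbers were 1301 and 866 genes. With control mouse SV421 left out, 14 genes passed against CT9, and leaving out knockout mouse SV418 of CT9 gave 7, control mouse SV420 of CT9 gave 5 and SV471 gave 5. Against CT17 the count ran from 1 to 4 genes when single mice were left out, and it differed from 2 by over 1.5 times for 28 of the 46 mice.

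**Figure D5:**
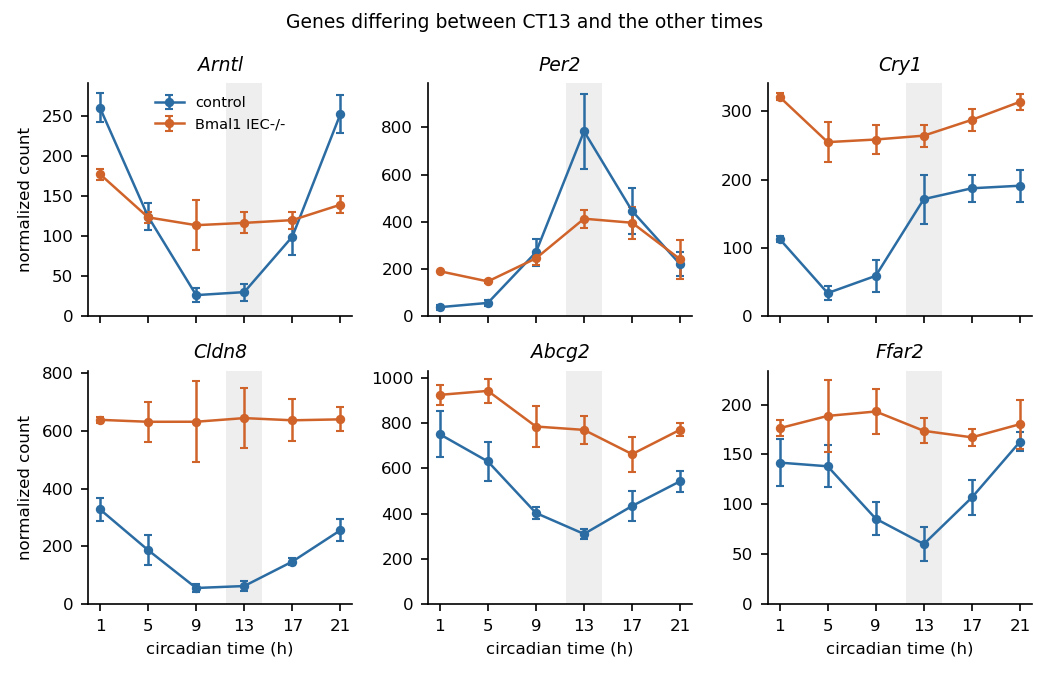
Normalized counts (y axis, mean ± SD) over circadian time (x axis, hours) in control (blue) and knockout mice (orange) for 6 of the leading genes by adjusted p in the test of CT13 against the other times, with CT13 shaded, 4 mice per point and 2 for knockout mice at CT1. The control line crosses or nears the knockout line for Arntl and Per2 and stays below it for Cry1, Cldn8, Abcg2 and Ffar2. The gap is small for Ffar2 at CT21 (log2 difference of 0.15) and for Abcg2 at CT1 (0.29).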

How the data were processed

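Whole colon of 48 mice, 4 per genotype at each of 6 circadian times, was profiled by paired-end sequencing of stranded poly(A) libraries. The deposited values are whole-number read counts per gene, made by the authors with Trimmomatic 0.39, STAR 2.7.5c on mm10 and featureCounts 1.4.6. The strand setting of the counting is not given in the sources used here, so antisense and overlapping genes may share reads. Gene positions were taken by identifier from the GENCODE annotation of GRCm38.

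Genes that passed edgeR's filterByExpr with its default settings were kept, and edgeR 4.0.16 (R 4.3.3) fitted a quasi-likelihood model of 12 groups of genotype and time to 46 mice. The 2 knockout mice of CT1 that the normalization of the study left out did not enter, so that group has 2 mice. The contrast was knockout minus control at CT13, and interaction contrasts compared it with the other times. P-values were adjusted by Benjamini and Hochberg's method over all genes tested. Normalized counts are counts over DESeq2 1.42.0 size factors. The scripts were tested on simulated data. Alternatives were DESeq2, limma-voom (limma 3.58.1), other scaling, filters, thresholds and mice. Replicates are separate mice, and between replicates of a group counts differed by a chi-square of 2.72 to 4.78 per gene, above sampling noise. The labels name no batch.

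Genes named are the core clock list, the leading 12 genes by adjusted p in each direction without Gm or Rik names, the leading 6 by adjusted p against the other times, and up to 4 called members of each of 41 lists with the largest fold changes. Genes outside this rule were chosen after their values were seen. A few of these genes count in the totals but are not reported here. The comparison, the lists and the tests were chosen with earlier results of these data known.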

Additional observations from a re-analysis of the deposited data

Results flagged for a closer look

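Among the 78 named genes, 14 of 156 groups of 4 mice (8.97%) held a mouse whose gap to its nearest neighbour, as a share of the range of its group, exceeded Dixon's critical value for 4 values. Chance flags about 1 in 20 such groups. Knockout mouse SV395 stood above the other knockout mice in Retnlb (gap 0.968 of the range), Fabp6 (0.944), Saa3 (0.902) and Itln1 (0.892). Control mouse SV424 stood above the other controls in Hspa1a (0.898) and Hspa1b (0.842) and below them in Alpi (0.893). Control mouse SV421 was high in Slc26a3 (0.839) and Gsdmc3 (0.83) and low in Muc3 (0.871). Knockout mouse SV449 was high in Glipr2 (0.845), Usp2 (0.844) and B3galt2 (0.83), and control mouse SV396 was low in Per1 (0.892). The labels give no reason for these mice to differ, and whether a technical or a biological difference lies behind them was not tested.

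The genotype difference at CT13 departed from the mean of the other 5 times in 23 of the named genes (edgeR interaction contrast, adjusted p below 0.05). Upward departures on the log2 scale were Slc34a2 3.23, Arntl 1.75, Cldn8 1.44, Acot2 1.12, Ffar2 0.98, Ccna2 0.96, Npas2 0.93, Ypel2 0.90, Abcg2 0.72, Glipr2 0.63, Pycard 0.50 and Ddc 0.47. Downward departures included Hspa1b -2.20, Per2 -1.62, Usp2 -1.22, Cry1 -0.94, Hsp90aa1 -0.93, Tef -0.72, Slc9a3r1 -0.52, A4gnt -0.50 and Plac8 -0.40. Those of Hspa1b and Hsp90aa1 involve SV424, the control mouse with the highest values of these genes. Against CT9 the departures included -1.48 for Cry1 and -1.57 for Nfil3, and against CT17 they were 1.65 for Arntl and 1.25 for Cldn8.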

How the results depend on the processing

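Under 8 alternatives that left the thresholds in place the number of genes called at CT13 stayed within 1.5 times 343, and no named gene that was called reversed under any alternative. The uncalled Bhlhe41 changed sign, from -0.079 to 0.047 over the alternatives and from -0.28 to 0.28 without single mice, as did Hlf without single mice (-0.0013 to 0.26). Testing against the fold limit itself gave 43 genes, 24 higher and 19 lower, with 19 list members, and a fold limit of 2 gave 143 genes, 89 higher and 54 lower, with 38 list members against 69. The comparison with the other times (86 genes) gave 18 at a fold of 2, 165 with DESeq2 and 445 without a filter on low counts. Against CT9 (3 genes) it gave 12 with DESeq2 and 254 without a filter. Against CT17 (2 genes) it gave 7 with DESeq2, 161 without a filter, and 1 with all 48 mice, limma-voom or DESeq2 size factors. The cause of these shifts was not tested. Leaving out each mouse gave 226 to 403 genes called, 113 to 207 higher and 113 to 196 lower, 401 to 745 with an adjusted p under the threshold, 23 to 161 against the other times, 2 to 14 against CT9, 1 to 4 against CT17, and 56 to 71 list members. Where this left knockout mice at CT1 with 1 mouse, that mouse was assumed to vary like the other groups. Of the 68 named genes called, 22 kept the call under every alternative, and 44 did when the 2 stricter fold rules were set aside. No paired analysis was possible because each mouse carries its own number and none is shared between genotypes. Depth limits genes with few reads, such as Itln1, Cyp3a11 and Slc34a2 in control mice, whose fold changes are imprecise.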

Other observations

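Genes outside the naming rule, chosen here after their values were seen, are given here as single genes. Slc11a2, the apical iron importer DMT1, had 275, 352, 449 and 269 normalized counts in control and 563, 629, 599.8 and 549 in knockout mice (log2 fold change of 0.80 ± 0.18 (SE), adjusted p = 0.00322, edgeR). Slc40a1, the iron exporter ferroportin, had 649, 676, 1165 and 588 against 1516, 1406, 1548 and 1406 (0.93 ± 0.18, adjusted p = 0.00102). All 4 knockout mice exceeded all controls in both genes, and control mouse SV421 was the highest of the controls. Clca4a, a calcium-activated chloride channel regulator, was among the largest falls, from 365, 302, 232 and 313 to 50.9, 38.4, 33.8 and 40.5 (-2.88 ± 0.40, adjusted p = 2.88e-06). Nox1, the NADPH oxidase of colonocytes, rose from 9.21, 7.54, 12.5 and 5.44 to 37.9, 20.2, 27.9 and 22.9 (1.64 ± 0.43, adjusted p = 0.0173).

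Among the genes called higher, and again picked by their values, Hmmr had 22.1, 12.9, 28.2 and 15.2 normalized counts in control and 41.2, 49.9, 52.4 and 39.6 in knockout mice (1.21 ± 0.32, adjusted p = 0.019), Ube2c 38.7, 65.7, 49.02 and 31.5 against 82.4, 71.1, 91.2 and 101 (0.91 ± 0.21, adjusted p = 0.00438), and Birc5 34.1, 44.2, 46.9 and 23.9 against 63.8, 65.3, 81.1 and 57.3 (0.84 ± 0.22, adjusted p = 0.0163). They code for a spindle protein, a ubiquitin-conjugating enzyme of the anaphase-promoting complex and survivin. The trefoil factor gene Tff2 had 6.45, 5.39, 1.04 and 3.26 in control mice and no reads in any knockout mouse, and no fold is given at this depth.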
